A study of Mus musculus with 10 samples.

Results

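Type I interferon-stimulated genes are switched on by interferon alpha and beta, and 9 of them were followed here: Ifit1, Ifit2, Ifit3, Isg15, Irf7, Oas2, Usp18, Ifi44 and Rsad2. They were chosen by name, and each matched a single entry among the 55487 genes of the deposited table. The data were RNA-seq counts from 10 libraries of GFP-positive cells that had been sorted from mouse brain. The series is titled as a study of neuronal TDP-43, an RNA-binding protein encoded by Tardbp, in myelin formation.

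All animals carried the Cre driver CamKIIcre/-, which is active in forebrain excitatory neurons, and all received an adeno-associated virus (AAV) in the dentate gyrus 1 month before collection. Control mice given AAV-FLEX-GFP formed the group NC-GFP (n = 3). Mice of the genotype TDP-43flox/flox::CamKIIcre/-, given the same GFP vector, formed cKO-GFP (n = 3). Mice of that conditional knockout genotype given AAV-FLEX-TDP-43mNLS-GFP, a vector for a TDP-43 form named mNLS, formed cKO-mNLS (n = 4). FLEX cassettes are expressed only after Cre recombination. Each library was made from cells pooled from 3 to 4 animals, so p-values here reflect how pools, not single animals, vary. Age and sex of the animals are not given in the labels. No group had a mock or interferon treatment, so the levels stand against NC-GFP, which itself had received a virus.

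Library totals lay between 17164162 and 29204279 counts. Tardbp, the targeted gene, was at 143, 128 and 121 CPM (counts scaled to library size) in NC-GFP, at 120.4, 122 and 108 CPM in cKO-GFP, and at 206, 218, 337 and 185 CPM in cKO-mNLS. It was not lower in cKO-GFP beyond the spread (edgeR log2 fold change -0.16, SE 0.205, adjusted p = 0.745), so the gene count does not check the knockout label, and it rose in cKO-mNLS against cKO-GFP by a log2 fold change of 1.02 (edgeR adjusted p = 0.00642). Neuronal markers were low for a CamKII-driven label: 8 of them summed to 205 to 236 CPM in NC-GFP, 157 to 250.3 CPM in cKO-GFP and 553 to 1290 CPM in cKO-mNLS, while 7 oligodendrocyte markers summed to 4453 to 15513 CPM and 9 microglial markers to 1689 to 6473 CPM over the 10 libraries. Prox1, a granule neuron gene, held most of the neuronal sum in NC-GFP, at 201, 175 and 217 CPM, and it was not called in any comparison. Between cKO-mNLS and cKO-GFP 6 of the 8 neuronal markers rose (median log2 fold change 3.71), where 8.93% of all genes rose. In such bulk samples, fewer cells of a type and less RNA per cell cannot be told apart.

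Type I interferons bind the receptor Ifnar1 and Ifnar2, whose kinases Jak1 and Tyk2 start the signal. A transcription factor complex that includes Stat2 and Irf9 then binds the interferon-stimulated response element (ISRE) in promoters. Interferon gamma, made mainly by T cells and natural killer (NK) cells, signals through a separate receptor, and its response is tied to another promoter element, the gamma-activated site (GAS). In the brain, microglia, astrocytes and oligodendrocytes can all respond to either kind of interferon, and the induced sets overlap in part.

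The promoters are shown because the ISRE is the element tied to the type I response, though some of the genes had no match. Promoter sequence from RefSeq (GRCm38.p6), 250 bases before to 50 bases after the start, was used for 7 of the 9 genes, and that of Oas2 and Usp18 was not analysed here. The ISRE core searched for was GAAA, any 2 bases and GAAA again, the longer form was the core followed by CT, and the GAS was TTCNNNGAA, each on both strands. The longer form contains the core, and neighbouring matches may overlap. The core was found in 4 of the 7 genes (Ifit1, Ifit3, Isg15 and Rsad2) and in 3.99% of the 27025 genes with a promoter in the same table. Among lists described below, it was also found in 11 of 25 interferon gamma response genes and 19 of 38 other type I induced genes with a promoter. It was thus not particular to the 9 genes. The longer form was found in Ifit1 and Ifit3, against 0.303% of all genes. A GAS match was found in Ifit2, against 9.55% of all genes. The stretches below are the 200 bases before the start, read 5′ to 3′ on the gene's strand, with matches in capitals. Irf1, which encodes a transcription factor of the interferon gamma response, stands beside them with its GAS match, and Ifi44, which had no match, is shown since it was the member that rose.
Ifit1, chr19:34640689-34640888 (+): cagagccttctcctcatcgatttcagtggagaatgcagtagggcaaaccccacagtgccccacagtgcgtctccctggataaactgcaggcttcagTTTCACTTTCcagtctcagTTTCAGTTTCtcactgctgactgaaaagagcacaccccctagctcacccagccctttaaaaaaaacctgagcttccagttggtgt
Ifit3, chr19:34583329-34583528 (+): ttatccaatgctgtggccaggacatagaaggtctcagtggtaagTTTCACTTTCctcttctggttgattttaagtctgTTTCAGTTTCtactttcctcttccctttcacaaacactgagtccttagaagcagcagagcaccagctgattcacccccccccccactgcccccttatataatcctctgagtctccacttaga
Isg15, chr4:156200819-156201018 (-): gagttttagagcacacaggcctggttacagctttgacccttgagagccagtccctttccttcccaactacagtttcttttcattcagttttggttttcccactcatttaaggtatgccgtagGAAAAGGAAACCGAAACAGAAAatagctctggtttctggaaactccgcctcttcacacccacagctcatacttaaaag
Rsad2, chr12:26456453-26456652 (-): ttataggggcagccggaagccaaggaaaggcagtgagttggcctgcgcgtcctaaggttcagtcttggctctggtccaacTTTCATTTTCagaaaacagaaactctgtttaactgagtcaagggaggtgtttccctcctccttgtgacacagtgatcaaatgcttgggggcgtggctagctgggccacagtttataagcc
Ifi44, chr3:151749911-151750110 (-): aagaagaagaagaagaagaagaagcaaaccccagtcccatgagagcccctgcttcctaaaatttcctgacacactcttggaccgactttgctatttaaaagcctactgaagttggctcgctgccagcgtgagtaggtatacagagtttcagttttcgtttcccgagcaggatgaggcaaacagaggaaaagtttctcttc
Irf1, chr11:53769814-53770013 (+): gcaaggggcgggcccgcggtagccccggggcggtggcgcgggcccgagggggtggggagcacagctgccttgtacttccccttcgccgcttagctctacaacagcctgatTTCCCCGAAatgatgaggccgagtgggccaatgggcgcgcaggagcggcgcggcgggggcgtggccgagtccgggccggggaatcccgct
In Ifit1 the core matches stood at -104 to -95 and at -85 to -76 from the start, on the minus strand, and in Ifit3 at -156 to -147 and -122 to -113. In Isg15, 3 overlapping matches ran from -78 to -57. Rsad2 had 1 match, at -120 to -111. Irf7 had no match. These are matches of letters in one window and not measured binding sites.

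The 9 genes were expressed in every library. In TPM, a unit that is scaled for transcript length and so allows levels to be compared between genes, the mean over the 10 libraries ran from Ifit3 (104 TPM) and Ifit2 (62.6 TPM) through Irf7 (46.4 TPM), Isg15 (30.8 TPM), Ifit1 (24.8 TPM) and Usp18 (22.4 TPM) to Ifi44 (12.8 TPM), Rsad2 (11.7 TPM) and Oas2 (10.5 TPM). Levels within the last 3 crossed between groups: in NC-GFP Oas2 stood highest of them at a mean of 15.5 TPM and Ifi44 lowest at 8.04 TPM, and in cKO-mNLS Ifi44 stood highest at 16.7 TPM and Oas2 lowest at 9.06 TPM. The Ifit genes together made up 56.4% to 72.2% of the CPM summed over the 9 genes.

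Between the groups, most of the 9 genes moved no more than their libraries spread, and the exceptions went in opposite directions. Oas2 fell in both knockout groups against NC-GFP. Ifi44 rose in cKO-mNLS against NC-GFP, by 2.03-fold. No gene was called between cKO-mNLS and cKO-GFP. A gene was called at an edgeR adjusted p under 0.05 over all 20379 genes tested.

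**Figure D1:**
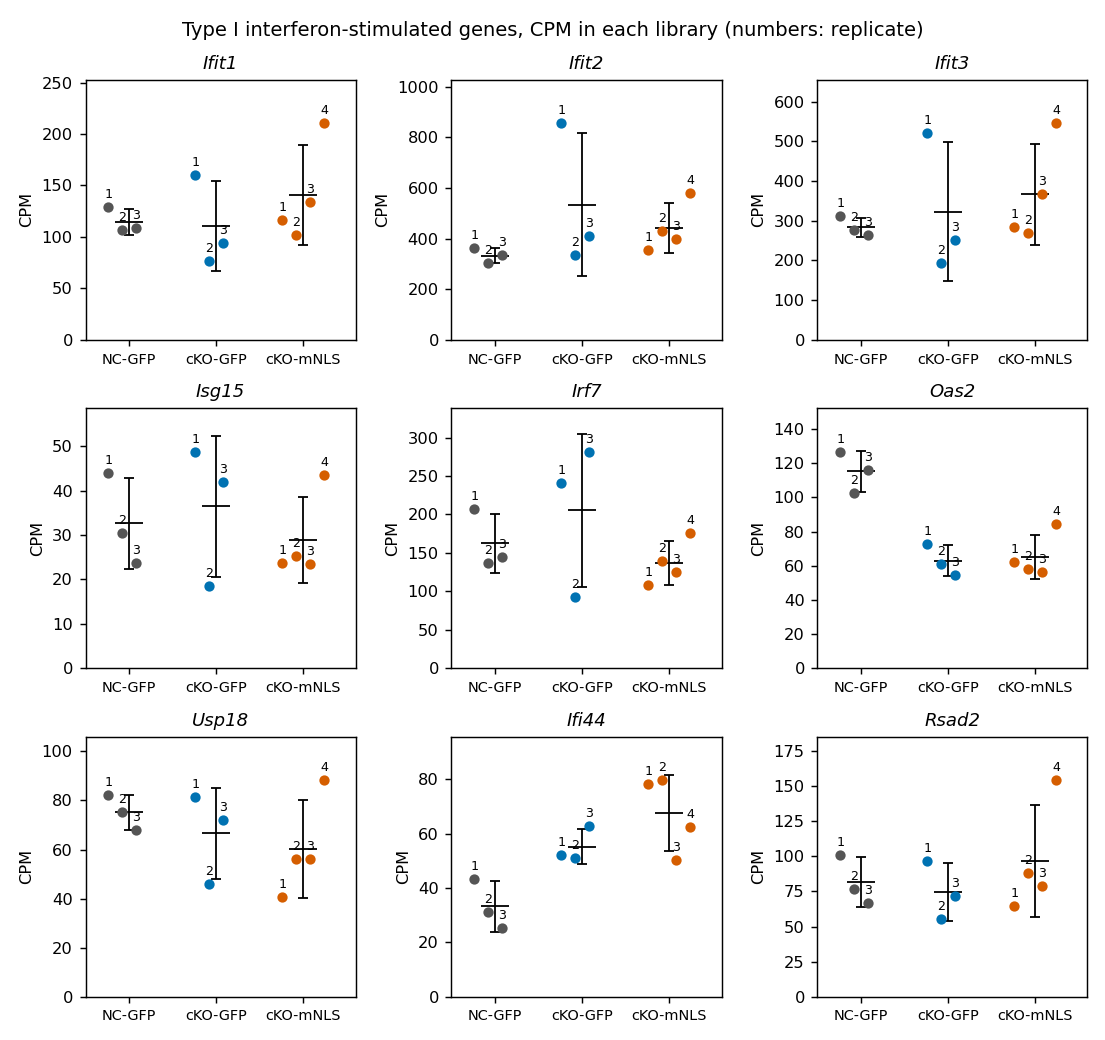
CPM of the 9 genes (y axis) in each library of the 3 groups (x axis); points are libraries with their replicate number, bars the group mean and SD. Oas2 in NC-GFP (103 to 127 CPM) lies above both knockout groups, Ifi44 in NC-GFP (25.3 to 43.4 CPM) lies below them, and the other genes overlap.

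Oas2 makes oligoadenylates that activate the ribonuclease RNase L. It is annotated on chromosome 5 (GRCm38, 120730333 to 120749853, minus strand, ENSMUSG00000032690.16). Its level was 127, 103 and 116 CPM in the NC-GFP libraries, 72.9, 61.2 and 54.8 CPM in cKO-GFP, and 62.3, 57.9, 56.3 and 84.3 CPM in cKO-mNLS. All 7 knockout libraries lay below the lowest NC-GFP library, and the knockout groups overlapped each other. In cKO-GFP against NC-GFP the log2 fold change was -0.87 (SE 0.179, 95% interval -1.26 to -0.48, edgeR adjusted p = 0.0354), where 1.1% of all genes tested were called lower and 11.4% were lower with no overlap of the groups. This call rested on few pools: with NC-GFP replicate 1, 2 or 3 or cKO-GFP replicate 3 left out the adjusted p was 0.116, 0.0669, 0.149 and 0.145. For cKO-mNLS against NC-GFP it was -0.82 (SE 0.165, 95% interval -1.18 to -0.46, edgeR adjusted p = 0.00775), where 3.25% of all genes were called lower and 10.8% were lower with no overlap. That call was made under each alternative and with each library left out, with adjusted p up to 0.045. A gene on the opposite strand, Gm43068, averaged 0.0380 CPM.

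Ifi44 encodes an interferon-induced protein that has been linked to antiviral defence and whose mechanism is less settled. It lies on chromosome 3 (151730922 to 151749960, minus strand, ENSMUSG00000028037.13). Its level was 43.4, 31.1 and 25.3 CPM in NC-GFP, 52.1, 50.9 and 62.7 CPM in cKO-GFP, and 78.2, 79.7, 50.2 and 62.5 CPM in cKO-mNLS. Every knockout library lay above every NC-GFP library. The log2 fold change in cKO-mNLS against NC-GFP was 1.02 (SE 0.213, 95% interval 0.56 to 1.49, edgeR adjusted p = 0.0093), where 8.23% of all genes were called higher and 13.9% were higher with no overlap. With NC-GFP replicate 2 or 3 left out the adjusted p was 0.0511 or 0.0551. For cKO-GFP against NC-GFP it was 0.73 (SE 0.223, 95% interval 0.24 to 1.22) and missed the threshold with edgeR (adjusted p = 0.128), while limma voom gave 0.80 (adjusted p = 0.0325). Of all genes, 13.6% were higher with no overlap in that comparison.

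The IFIT proteins bind foreign RNA and restrict its translation, and their genes lie side by side on chromosome 19. Ifit2 (34550694 to 34576419, plus strand, ENSMUSG00000045932.12) was at 361, 304 and 334 CPM in NC-GFP, at 856, 336 and 412 CPM in cKO-GFP, and at 355, 431, 399.9 and 581 CPM in cKO-mNLS. The mean of NC-GFP was 333 ± 28.6 CPM (SD, n = 3), that of cKO-GFP 535 ± 281 CPM (SD, n = 3), and that of cKO-mNLS 442 ± 97.7 CPM (SD, n = 4). A single pool, cKO-GFP replicate 1, stood above the other 9 libraries. Against NC-GFP the log2 fold change of Ifit2 in cKO-GFP was 0.68 (SE 0.309, 95% interval 0.01 to 1.36, edgeR adjusted p = 0.294), and 0.13 without that pool.

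Ifit3 (34583531 to 34588731, plus strand, ENSMUSG00000074896.3) was at 311, 276 and 265 CPM in NC-GFP, at 522, 195 and 251 CPM in cKO-GFP, and at 284, 269, 368 and 546 CPM in cKO-mNLS. Ifit1 (34640871 to 34650009, plus strand, ENSMUSG00000034459.8) was at 129, 106 and 109 CPM in NC-GFP, at 159.9, 77.0 and 94.4 CPM in cKO-GFP, and at 116, 102, 134 and 211 CPM in cKO-mNLS. For both genes cKO-mNLS replicate 4 was the highest and cKO-GFP replicate 2 the lowest of the 10 libraries, and all groups overlapped. Log2 fold changes against NC-GFP were 0.18 (SE 0.350) for Ifit3 and -0.06 (SE 0.297) for Ifit1 in cKO-GFP, with edgeR adjusted p of 0.845 and 0.952. In cKO-mNLS they were 0.37 for Ifit3 (95% interval -0.35 to 1.09) and 0.29 for Ifit1 (95% interval -0.32 to 0.90), with edgeR adjusted p of 0.55 and 0.579. Ifit3 shares reads with the near-identical Ifit3b, which averaged 89.6 CPM, and its estimated counts were not whole numbers in all 10 libraries, so the split between the copies is uncertain. Ifit1 counts were not whole in 6 libraries.

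Rsad2 encodes viperin, an enzyme whose product stops viral polymerases. It lies on chromosome 12 (26442746 to 26456452, minus strand, ENSMUSG00000020641.16) and was at 101, 76.4 and 66.9 CPM in NC-GFP, at 96.9, 55.4 and 71.5 CPM in cKO-GFP, and at 64.7, 87.8, 78.9 and 154 CPM in cKO-mNLS. The groups overlapped, and the highest value was again in cKO-mNLS replicate 4. The log2 fold change of Rsad2 was -0.13 (95% interval -0.80 to 0.55) in cKO-GFP against NC-GFP, 0.37 (-0.27 to 1.01) in cKO-mNLS against cKO-GFP and 0.24 (-0.39 to 0.88) in cKO-mNLS against NC-GFP, with edgeR adjusted p of 0.882, 0.44 and 0.673.

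Isg15 is a ubiquitin-like protein that is attached to other proteins during the interferon response, and Usp18 is the protease that removes it and also damps signalling at the type I receptor. Isg15 (chromosome 4, 156199455 to 156200796, minus strand, ENSMUSG00000035692.7) was at 43.9, 30.4 and 23.6 CPM in NC-GFP, at 48.8, 18.6 and 41.99 CPM in cKO-GFP, and at 23.7, 25.2, 23.4 and 43.5 CPM in cKO-mNLS. Usp18 (chromosome 6, 121245906 to 121270917, plus strand, ENSMUSG00000030107.10) was at 82.4, 75.4 and 68.0 CPM in NC-GFP, at 81.5, 46.0 and 72.2 CPM in cKO-GFP, and at 40.9, 56.0, 56.3 and 88.3 CPM in cKO-mNLS. The highest pool of each group was the same for the pair: NC-GFP replicate 1, cKO-GFP replicate 1 and cKO-mNLS replicate 4. For Isg15 the log2 fold change was 0.16 (SE 0.363) in cKO-GFP and -0.17 (SE 0.339) in cKO-mNLS against NC-GFP, and for Usp18 it was -0.18 (SE 0.267) and -0.32 (SE 0.248), with edgeR adjusted p between 0.483 and 0.874.

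Irf7 is the transcription factor that amplifies production of type I interferon. It lies on chromosome 7 (141262706 to 141266481, minus strand, ENSMUSG00000025498.15) and was at 206, 136 and 144 CPM in NC-GFP, at 241, 93.1 and 282 CPM in cKO-GFP, and at 108, 139.8, 125 and 176 CPM in cKO-mNLS. The cKO-GFP pools spanned the other groups, from the lowest value of the 10 libraries to the highest. Between cKO-mNLS and cKO-GFP, the latter as reference, the log2 fold change was -0.58 (SE 0.318, 95% interval -1.28 to 0.12, edgeR adjusted p = 0.253). Without cKO-GFP replicate 2 it was -0.87 (edgeR adjusted p = 0.0183). Against NC-GFP it was 0.34 (SE 0.343, adjusted p = 0.672) in cKO-GFP and -0.24 (SE 0.319, adjusted p = 0.705) in cKO-mNLS. Irf7 overlaps Phrf1 on the opposite strand, which averaged 85.1 CPM beside 165 CPM for Irf7, and whether counting used strand is not given in the sources used here.

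**Figure D2:**
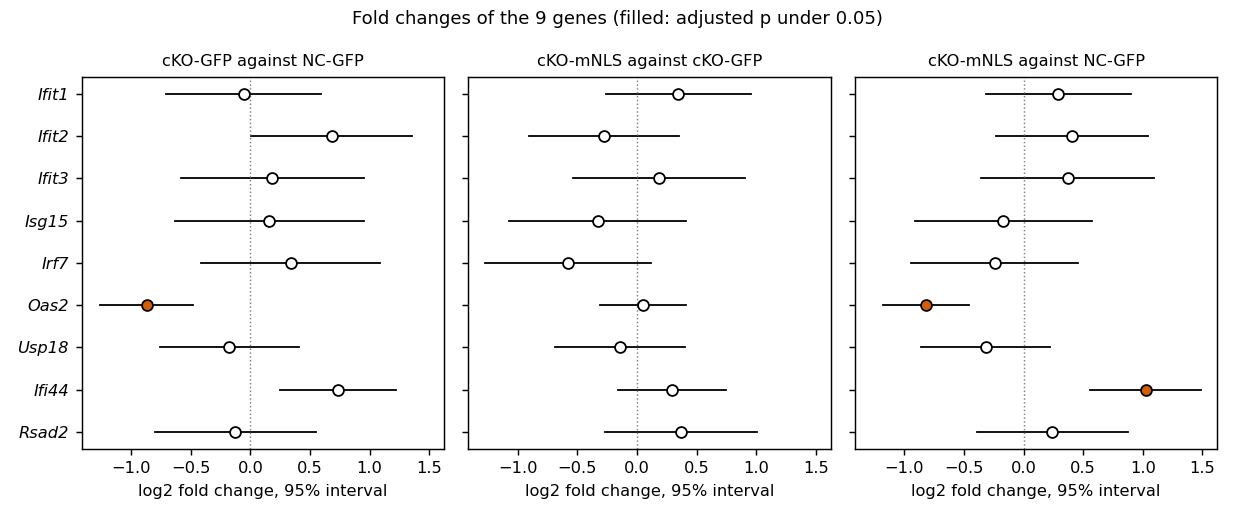
Log2 fold change (x axis) with its 95% interval for each of the 9 genes (y axis) in the 3 comparisons; filled points have an edgeR adjusted p under 0.05. Oas2 lies below 0 in both comparisons with NC-GFP (-0.87 and -0.82), Ifi44 is filled at 1.02 in cKO-mNLS against NC-GFP, and no point is filled in cKO-mNLS against cKO-GFP.

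As a group, 0 of the 9 genes were higher and 1 lower in cKO-GFP against NC-GFP, where 1.63% of all genes tested were called in either direction. At an unadjusted p under 0.05, 2 were higher and 1 lower, against 16.8% of all genes in either direction. The groups did not overlap for 2 of the 9, against 25% of all genes. DESeq2 called Oas2 alone, and limma voom called Oas2 and Ifi44. Of all genes, DESeq2 called 1391 and limma voom 1506 in that comparison. Between cKO-mNLS and cKO-GFP, edgeR, DESeq2 and limma voom each called 0 of the 9, while edgeR called 16.1% of all genes (8.93% higher and 7.13% lower). None of the 9 had an unadjusted p under 0.05 there, against 29.6% of all genes, or groups that did not overlap, against 25.7%. Between cKO-mNLS and NC-GFP 1 was higher and 1 lower, where 11.5% of all genes were called; at an unadjusted p under 0.05 it was again 1 each, against 25.1%, and the groups did not overlap for 2 of the 9, against 24.7%. The median log2 fold change of the 9 was 0.16, 0.05 and 0.24 in these comparisons, beside 0.04, -0.01 and -0.02 for all genes tested. The comparisons share libraries and are not independent.

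The spread within groups followed the same pools for most of the genes. The highest library of NC-GFP was replicate 1 for all 9 genes. In cKO-GFP it was replicate 1 for 7 genes, and in cKO-mNLS it was replicate 4 for 8 genes. Summed over the 9 genes, NC-GFP stood at 1406, 1138 and 1152 CPM, cKO-GFP at 2131, 932.5 and 1343 CPM, and cKO-mNLS at 1134, 1249, 1291 and 1946 CPM. The highest and lowest sums of the 10 were both in cKO-GFP. The ratio of the highest to the lowest library ran from 2.16 for Usp18 to 3.15 for Ifi44.

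Pooled within groups, the SD of log2 CPM was 0.54 for Isg15, 0.53 for Irf7 and 0.50 for Ifit3, and it was smallest for Ifi44 (0.31) and Oas2 (0.22). Among the 500 genes nearest in level, 93.4% had a smaller SD than Irf7, 92.6% than Ifit3, 91.6% than Rsad2 and 91.2% than Isg15, against 55.8% for Oas2. The 2 called genes had the smallest SDs of the 9 and also the largest differences from NC-GFP.

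**Figure D3:**
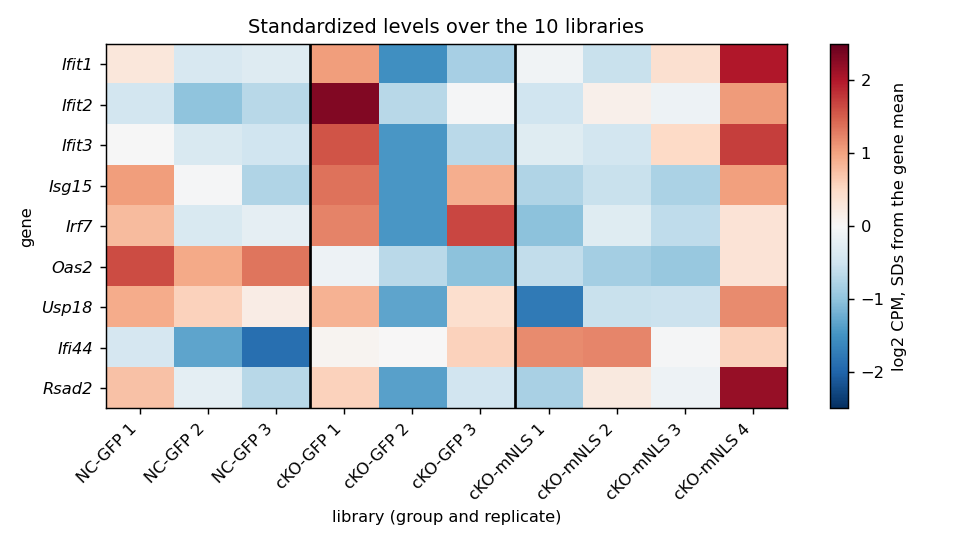
Standardized log2 CPM of the 9 genes (rows; SDs from the gene's mean) in the 10 libraries (columns; lines part the groups). Columns cKO-GFP 1 and cKO-mNLS 4 are high for most genes and cKO-GFP 2 is the lowest column for 5 of the 9, while the Oas2 and Ifi44 rows change at the line between NC-GFP and the knockout groups.

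Over the 10 libraries, the Pearson correlation of each gene's log2 CPM with the mean standardized profile of the other members was 0.87 for Isg15 and Rsad2, 0.84 for Ifit3, 0.81 for Ifit1, 0.75 for Usp18, 0.70 for Ifit2 and 0.66 for Irf7. It was 0.12 for Oas2 and -0.04 for Ifi44. The 4 genes with an ISRE core match in the promoters shown above had the highest values. The promoters of Usp18 and Oas2 were not analysed, and a link between promoter match and profile was not tested. Ifit1 and Ifit3 had the closest profiles of any pair (r = 0.97), and Oas2 and Ifi44 the most opposed (r = -0.74). Of the genes that are no member, those most like the members' mean profile were Tmem242 (r = 0.95), Parp12 (0.92), Phf11d (0.92), Oasl2 (0.91), Xaf1 (0.88) and Ifih1 (0.88). All points share the same libraries and depths, and the values are descriptions over 10 libraries in 3 groups. Of the 100 most like genes, 14 were in a list of 50 other genes induced by type I interferon. In the interferon gamma list described below were 2, and in the microglial list 0. These lists held 49, 42 and 9 of the 20379 genes tested, so the 0 of the short microglial list says little. Symbols starting with Gm and a digit, ending in Rik or holding -ps were left out of the ranking.

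That list of other type I induced genes held 49 genes with enough counts to test. In cKO-GFP against NC-GFP 0 were called by edgeR (0.53% of all genes were called higher). DESeq2 called 1 of the list and limma voom 3, where of all genes they called 652 and 684 higher. At an unadjusted edgeR p under 0.05, 6 were higher, as were 1982 of the 20379 genes tested. Their median log2 fold change was 0.16. When cKO-mNLS was compared with cKO-GFP, 9 fell and 0 rose, where 7.13% of all genes fell, with a median of -0.43. Among them were the DNA sensor family members Ifi207 (log2 fold change -1.005, edgeR adjusted p = 0.0122) and Ifi204 (-1.22, 0.0124), Ly6e (-0.94, 0.0155) and the ubiquitin ligase Dtx3l (-0.71, 0.0229). Against NC-GFP, Ifi27 rose in cKO-mNLS (0.78, edgeR adjusted p = 0.0255) and 4 genes fell, among them Ifi213 (-1.20, 0.0407), Ifi204 (-0.97, 0.0409) and Sp100 (-0.94, 0.0438). Of all genes, 8.23% rose and 3.25% fell in that comparison. These counts turned on single pools: the 9 became 0 without cKO-GFP replicate 1 or replicate 3, 18 without cKO-GFP replicate 2, and 4 or 5 without NC-GFP replicate 1 or 2 or cKO-mNLS replicate 1, 3 or 4. The 4 became 0 without any 1 NC-GFP library, cKO-GFP replicate 3 or cKO-mNLS replicate 1 or 3, 2 without cKO-GFP replicate 1, and 7 without cKO-GFP replicate 2. Ifi27 was not called without NC-GFP replicate 2 or 3 or cKO-mNLS replicate 1 (adjusted p up to 0.107). Without cKO-GFP replicate 2, 3 of the list were higher in cKO-GFP against NC-GFP. Counts of all genes called moved too when a library was left out, from 61 to 755 in cKO-GFP against NC-GFP. They ranged from 1178 to 3629 in cKO-mNLS against cKO-GFP and from 1217 to 2603 in cKO-mNLS against NC-GFP.

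Most genes of the interferon gamma response were higher in cKO-GFP than in NC-GFP. This list of 42 held guanylate-binding proteins, immunity-related GTPases, immunoproteasome subunits, antigen presentation genes and chemokines. Of the 42, 24 rose and 0 fell in cKO-GFP against NC-GFP, where 0.53% of all genes rose, and the median log2 fold change was 1.37. The list was drawn up with this response already known, so the count is a description. Serping1, an inhibitor of complement, was at 13.5, 17.4 and 12.99 CPM in NC-GFP, at 82.9, 70.5 and 75.0 CPM in cKO-GFP, and at 135, 141, 93.7 and 50.4 CPM in cKO-mNLS. Batf2, a transcription factor of activated macrophages, was at 7.69, 9.58 and 6.55 CPM, at 25.6, 19.9 and 26.0 CPM, and at 17.0, 20.6, 15.6 and 18.1 CPM in the same order. Neither gene's NC-GFP libraries reached those of the knockout groups. Log2 fold changes in cKO-GFP against NC-GFP were 2.38 for Serping1 and 1.58 for Batf2 (edgeR adjusted p 0.00758 and 0.00666), and the guanylate-binding protein genes Gbp10 (1.92) and Gbp3 (1.26) had an adjusted p of 0.00821 each. Without NC-GFP replicate 3 the adjusted p was 0.0621 for Gbp10 and 0.0663 for Gbp3.

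The count of 24 depended on the pools sampled. It was 5, 8 and 2 without NC-GFP replicate 1, 2 and 3, 9, 30 and 8 without cKO-GFP replicate 1, 2 and 3, and 24 to 30 without a cKO-mNLS library. The count of all genes called moved as well, from 61 to 755 over the same fits, against 333 with all 10 libraries. Serping1 and Batf2 were called whichever library was left out. DESeq2 called 39 of the 42 and limma voom 37, where of all genes they called 652 and 684 higher. All 42 estimates were above 0.

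In cKO-mNLS against cKO-GFP 14 of the 42 fell and 0 rose, where 7.13% of all genes fell, with a median of -0.46. They included H2-Ab1 (log2 fold change -2.11, edgeR adjusted p = 0.0106), Psmb9 (-0.81, 0.0137), Gbp2b (-3.68, 0.0154) and Psmb8 (-0.77, 0.0164), which act in antigen processing and presentation apart from the GTPase Gbp2b. The count was 0 without cKO-GFP replicate 3, 3 without cKO-GFP replicate 1 and 8 without cKO-mNLS replicate 3. All genes called there ranged from 1178 to 3629 with a library left out, against 3273 with none left out. Against NC-GFP, 19 rose in cKO-mNLS and 0 fell, where 8.23% of all genes rose and 3.25% fell, with a median of 0.82; Serping1 (2.84, edgeR adjusted p = 0.000665), Gbp10 (2.02, 0.00115), Tgtp1 (2.01, 0.00135) and Ifi47 (1.33, 0.00208) had the smallest p. Of the 24 and the 19 genes, 17 were shared, in comparisons that use the same NC-GFP libraries.

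**Figure D4:**
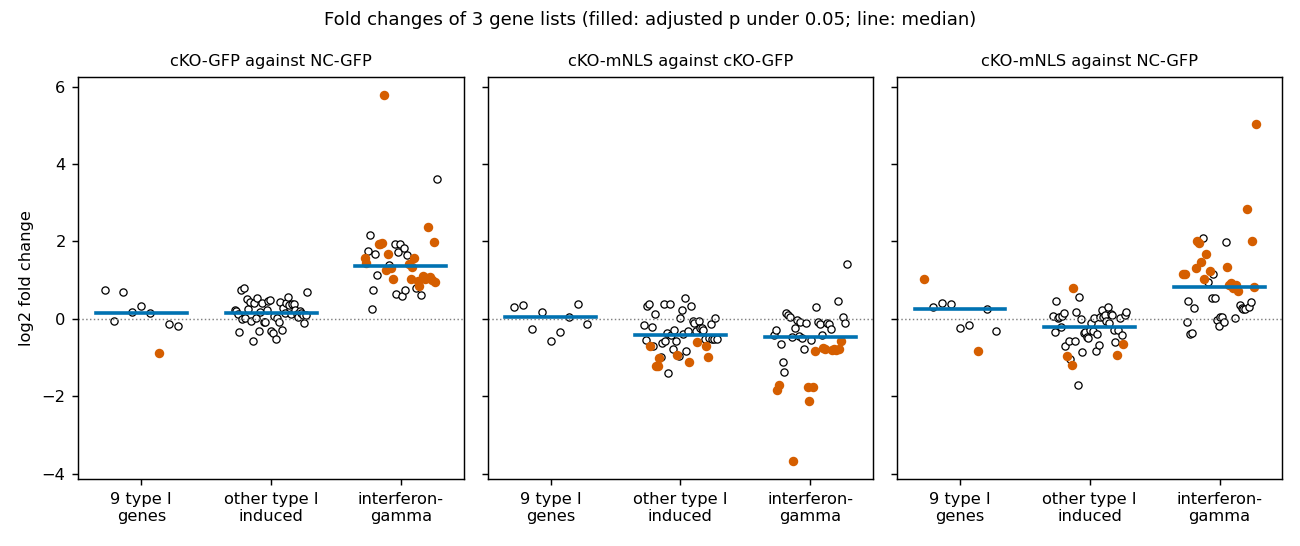
Log2 fold change (y axis) of each gene of 3 lists (x axis) in the 3 comparisons; filled points have an edgeR adjusted p under 0.05 and blue lines are medians. The medians of the 9 genes (0.16, 0.05 and 0.24) stay near 0, and those of the interferon gamma list are 1.37, -0.46 and 0.82.

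Set side by side in each library, the mean log2 CPM of the 9 genes was 6.93, 6.58 and 6.51 in NC-GFP and 7.16, 6.22 and 6.76 in cKO-GFP, while cKO-mNLS had 6.49, 6.64, 6.59 and 7.22. That of the 42 interferon gamma genes was 6.09, 6.40 and 6.14 in NC-GFP and 7.85, 7.24 and 7.87 in cKO-GFP, while cKO-mNLS had 7.23, 7.49, 6.66 and 6.73. Mean and SD of the former were 6.68 ± 0.225 over the 3 NC-GFP libraries, 6.71 ± 0.474 over the 3 cKO-GFP libraries and 6.74 ± 0.329 over the 4 cKO-mNLS libraries. For the latter they were 6.21 ± 0.167, 7.66 ± 0.355 and 7.03 ± 0.398 in the same order. The difference between the lists, gamma minus type I, was -0.85, -0.18 and -0.37 in NC-GFP and 0.69, 1.03 and 1.11 in cKO-GFP, while cKO-mNLS had 0.73, 0.86, 0.07 and -0.49. All 3 cKO-GFP libraries lay above all 3 NC-GFP libraries in that difference, and cKO-mNLS replicate 4, the pool with the highest type I mean, lay among the NC-GFP values. No test was made of this score, since both lists were chosen with results known.

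**Figure D5:**
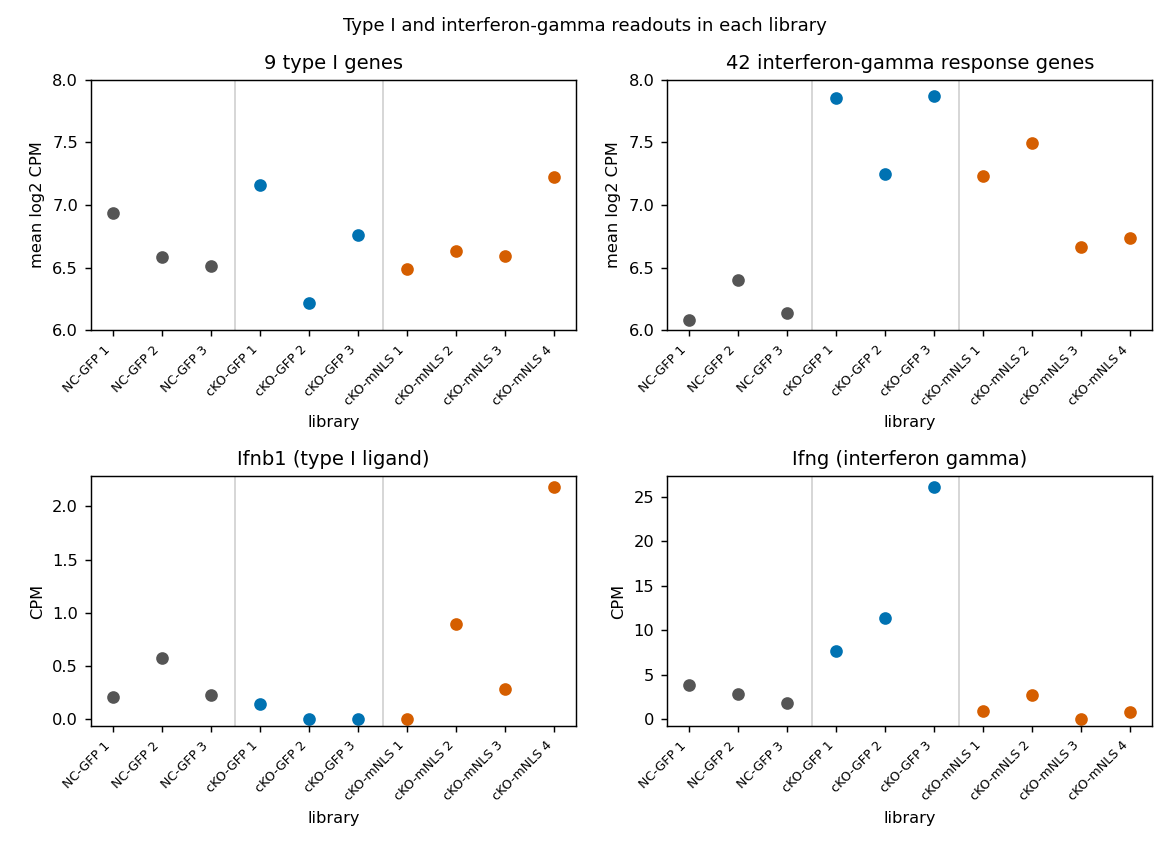
Upper panels: mean log2 CPM of the 9 type I genes and of the 42 interferon gamma genes in each library; lower panels: CPM of the ligand genes Ifnb1 and Ifng. The 9 genes overlap between groups, the gamma list is higher in every knockout library than in every NC-GFP library, Ifng peaks at 26.1 CPM in cKO-GFP and Ifnb1 at 2.18 CPM in cKO-mNLS replicate 4.

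Ligand transcripts were scarce. Of 21 interferon genes 12 had no count in any library, and only Ifnb1 and Ifng exceeded 100 counts over the 10 libraries. Ifnb1, which encodes interferon beta, had 5, 15 and 4 counts in NC-GFP and 4, 0 and 0 in cKO-GFP, while cKO-mNLS had 0, 19, 7 and 61. The libraries at 0 allow up to 0.120 and 0.118 CPM in cKO-GFP and 0.104 CPM in cKO-mNLS (3 counts, counting error only). The pool with the most Ifnb1 counts, cKO-mNLS replicate 4, was also the highest of the 10 libraries for 4 of the 9 genes. The highest sum over the 9 genes, 2131 CPM, was in cKO-GFP replicate 1, which had 4 Ifnb1 counts. In cKO-mNLS replicate 2, with 19 Ifnb1 counts, that sum was 1249 CPM. A link between Ifnb1 and the 9 genes was not tested. Between groups Ifnb1 was not called by edgeR (adjusted p of 0.449, 0.125 and 0.627). In cKO-GFP against NC-GFP its log2 estimate was -2.68 with groups that did not overlap, at 15 counts or fewer in each library. Of all genes, 11.4% were lower with no overlap there. In cKO-mNLS against cKO-GFP its estimate was 3.97 on the log2 scale (SE 1.63, unadjusted p = 0.0322), the groups overlapped, and DESeq2 called it higher while limma voom did not. Ifng had 92, 73 and 32 counts in NC-GFP and 217, 285 and 663 in cKO-GFP, while cKO-mNLS had 25, 59, 0 and 23. It fell in cKO-mNLS against cKO-GFP (log2 fold change -3.77, SE 0.883, edgeR adjusted p = 0.0155; 0.111 without cKO-GFP replicate 3), and in cKO-GFP against NC-GFP the estimate was 2.41 (SE 0.923, edgeR adjusted p = 0.215) with groups that did not overlap.

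Among 13 receptors and signal transducers, Stat2 and Irf9 of the type I complex had log2 fold changes of 0.31 (edgeR adjusted p = 0.366) and 0.28 (adjusted p = 0.386) in cKO-GFP against NC-GFP. With cKO-GFP as reference, 8 of the 13 fell in cKO-mNLS, where 7.13% of all genes fell, among them the interferon gamma receptor gene Ifngr1 (-0.98, edgeR adjusted p = 0.00268), Il10rb (-0.74, 0.0091), Tyk2 (-0.65, 0.0181) and the type I receptor gene Ifnar2 (-0.73, 0.0208). The count of 8 was 2 without cKO-GFP replicate 1, 1 without cKO-GFP replicate 3 and 3 to 8 without any other library, and Ifngr1 was called each time. All genes called ranged from 1178 to 3629 over these fits. Ifngr1 also fell in cKO-mNLS against NC-GFP (-1.08, edgeR adjusted p = 0.00142), with each library left out too.

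Of 20 sensors and adaptors, which start interferon production, 0 were called by edgeR in cKO-GFP against NC-GFP. DESeq2 called 1 of the 20 and limma voom 3, where of all genes they called 652 and 684 higher. At an unadjusted edgeR p under 0.05, 4 were higher, as were 1982 of the 20379 genes tested. In cKO-mNLS against cKO-GFP 10 of the 20 fell, where 7.13% of all genes fell, led by the adaptor of DNA sensing Sting1 (-1.28, edgeR adjusted p = 0.00347), Tlr4 (-1.28, 0.00434), Myd88 (-0.88, 0.00553) and Tlr9 (-1.09, 0.0139), and against NC-GFP Sting1 (-1.02, 0.0096) and Tlr7 (-0.87, 0.0445) fell, where 3.25% of all genes fell. The count of 10 was 3 without cKO-GFP replicate 1 or 3 and 6 to 9 without any other library, with Sting1, Tlr4 and Myd88 called each time. All genes called ranged from 1178 to 3629 over these fits. Against NC-GFP the adjusted p of Sting1 was 0.0572 when NC-GFP replicate 2 was left out, and Tlr7 was called in 2 of the 10 fits that left out a library. Of 8 negative regulators, Socs1 alone rose in cKO-GFP against NC-GFP (2.03, SE 0.378, edgeR adjusted p = 0.023), where 0.53% of all genes rose. That call was lost without any 1 NC-GFP library and without cKO-GFP replicate 1 or 3 (adjusted p up to 0.128). Of the same 8, Socs1 (-1.25, 0.0273), Socs3 (-1.49, 0.00372), Ptpn6 (-1.26, 0.00384) and Nlrx1 (-0.78, 0.0243) fell in cKO-mNLS against cKO-GFP, and Socs3 fell against NC-GFP (-1.03, 0.0209). Of all genes, 7.13% and 3.25% fell in these comparisons, in that order. With each library left out in turn, Socs3 and Ptpn6 were called in 10 of 10 fits in cKO-mNLS against cKO-GFP, Nlrx1 in 5 and Socs1 in 4, and Socs3 in 6 of 10 against NC-GFP.

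Markers of other cells also differed between groups, not all in the direction of these lists. Summed over 10 T and NK cell markers, NC-GFP stood at 59.6 to 123 CPM, cKO-GFP at 134 to 409 CPM and cKO-mNLS at 20.4 to 82.4 CPM. Of these markers 0 of 10 were called in cKO-GFP against NC-GFP by edgeR, where 0.53% of all genes rose. At an unadjusted edgeR p under 0.05, 5 were higher, as were 1982 of the 20379 genes tested. DESeq2 called 2 of the 10 and limma voom 0, where of all genes they called 652 and 684 higher. In cKO-mNLS against cKO-GFP 7 fell, where 7.13% of all genes fell (2 without cKO-GFP replicate 3, 5 to 7 without any other library). Cd8a was at 7.27, 7.16 and 6.44 CPM in NC-GFP, at 17.0, 58.5 and 85.5 CPM in cKO-GFP, and at 17.97, 11.9, 1.65 and 2.40 CPM in cKO-mNLS. Cd3e was at 21.3, 24.4 and 8.76 CPM in NC-GFP and at 22.7, 47.1 and 76.8 CPM in cKO-GFP, so these groups overlapped. Between cKO-GFP and NC-GFP the groups did not overlap for 5 of the 10 markers, against 25% of all genes. Up to 2 of the 10 were at 0 in a library. The 9 microglial markers summed to 4878 to 6473 CPM in NC-GFP, 4162 to 6465 CPM in cKO-GFP and 1689 to 4392 CPM in cKO-mNLS. Of the 9, 0 were called in cKO-GFP against NC-GFP by edgeR, DESeq2 or limma voom. In cKO-mNLS against cKO-GFP 4 fell (1 without cKO-GFP replicate 1 or 3, 2 without cKO-mNLS replicate 1 or 2), where 7.13% of all genes fell. Against NC-GFP 5 fell in cKO-mNLS (1 without NC-GFP replicate 2 or 3, 8 without cKO-mNLS replicate 4), where 3.25% of all genes fell. P2ry12 was at 304, 369 and 357 CPM in NC-GFP, at 299, 147 and 188 CPM in cKO-GFP, and at 106, 46.4, 142 and 155 CPM in cKO-mNLS. None of the microglial markers was at 0 in any library. With a library left out, all genes called by edgeR ranged from 1178 to 3629 in cKO-mNLS against cKO-GFP. Against NC-GFP they ranged from 1217 to 2603 in cKO-mNLS.

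The 8 astrocyte markers summed to 3491 to 4034 CPM in NC-GFP, to 1021 to 1651 CPM in cKO-GFP and to 1682 to 4008 CPM in cKO-mNLS. Of these 4 fell in cKO-GFP against NC-GFP with edgeR, where 1.1% of all genes fell, and the median log2 fold change was -1.41. DESeq2 and limma voom each called 7 lower, where they called 1391 and 1506 of all genes in either direction. The edgeR count was 2 without any 1 NC-GFP library or cKO-GFP replicate 1 or 3. Of all genes, edgeR called 61 to 755 in this comparison with a library left out. Aqp4 was at 166, 200 and 194 CPM in NC-GFP and at 46.6, 76.5 and 75.7 CPM in cKO-GFP. Gja1, a gap junction gene, was at 406, 493 and 472 CPM in NC-GFP and at 115, 129.7 and 117 CPM in cKO-GFP. Estimates of 7 of the 8 lay below 0. Gfap went the other way (log2 fold change 0.73, not called), at 50.6, 37.2 and 43.5 CPM in NC-GFP and 24.9, 92.1 and 100 CPM in cKO-GFP. The 6 markers of monocytes and border macrophages summed to 160.2 to 204 CPM in NC-GFP, to 219 to 478 CPM in cKO-GFP and to 70.2 to 172 CPM in cKO-mNLS. Of the 6, edgeR called 0 in cKO-GFP against NC-GFP (DESeq2 called 2 higher and limma voom 1, against 652 and 684 of all genes). In cKO-mNLS against cKO-GFP 3 fell, where 7.13% of all genes fell (1 to 3 with a library left out, and 0 without cKO-GFP replicate 3). All genes called ranged from 1178 to 3629 over such fits. Neutrophil markers summed to at most 47.7 CPM and red cell markers to at most 394 CPM, and in cKO-mNLS to at most 0.0936 and 4.45 CPM. For each, 3 of the 3 markers tested fell in cKO-mNLS against cKO-GFP with edgeR and 0 with limma voom. Of all genes, edgeR called 7.13% lower there. The part of these cells in the results of the interferon lists was not tested.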

How the data were processed

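Per the file headers, each library had a column of estimated counts and a column of TPM. The estimated counts had been deposited without normalization, and 5.84% of them were fractional. The authors had scaled TPM for length and library total; here it served only for levels between genes. The submitters' processing notes name DRAGEN and GRCm38/mm10; annotation release and strand use in counting are not stated in the sources. Columns were matched to libraries by name, and the labels gave the groups.

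Counts were rounded to whole numbers. The group-wise filter of edgeR 4.0.16 (R 4.3.3) left 20379 genes with at least 99.83% of each library's counts. The quasi-likelihood F test with TMM scaling and robust estimation was run in 1 model of 3 groups and 10 libraries (7 residual degrees of freedom), with Benjamini-Hochberg adjustment over all genes tested and a threshold of 0.05. SDs and correlations used log2 CPM with a prior count of 2. The steps were checked on simulated counts, and no replicates agreed within counting noise. Alternatives were the size factors of DESeq2 1.42.0, its Wald test, voom with quality weights of limma 3.58.1, other filters, only the compared groups, a replicate block, and each library left out.

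The members and gene lists were chosen with earlier results of these data known. All members are named. From each other interferon list up to 4 called genes of smallest p per comparison are named, and from marker lists genes at the start of the list as written. Prox1 and Gfap stand further down their lists and are named besides. The 6 non-members most like the members' profile are named too. Irf1 is named for its promoter only. A gene that this rule names is not reported here.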

Additional observations from a re-analysis of the deposited data

Results flagged for a closer look

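Isg15 in cKO-mNLS was flagged because 1 library stood far from the other 3. Replicate 4 was at 43.5 CPM, and replicates 1 to 3 were at 23.7, 25.2 and 23.4 CPM, so the gap to the nearest library made up 0.909 of the range of the group, more than Dixon's 95% critical value for 4 samples. The 9 genes were each examined in this group of 4, and chance flags about 1 in 20 such groups. The same library was the highest of the group for 8 of the 9 genes and held the most Ifnb1 counts, 61 against 0, 19 and 7. Replicate 2, with 19 Ifnb1 counts, was at 25.2 CPM for Isg15, and a link with Ifnb1 was not tested. The Isg15 value of replicate 4 lay inside the range of the other groups, where Isg15 reached 43.9 CPM in NC-GFP and 48.8 CPM in cKO-GFP.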

How the results depend on the processing

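In cKO-GFP against NC-GFP, genes of the interferon gamma list called numbered 39 with DESeq2 and 37 with limma voom, against 24; all genes called numbered 1391 with DESeq2 (652 higher), 1506 with limma voom (684 higher) and 754 with only the compared groups, against 333 (108 higher); and limma voom called 2 of the 9 type I genes in place of 1. In cKO-mNLS against cKO-GFP the interferon gamma count was 8 without the low-count filter and 8 with only the compared groups, against 14. In cKO-mNLS against NC-GFP DESeq2 called 3567 genes, against 2341.

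With the replicate number as a block, the interferon gamma counts were 14 in cKO-GFP against NC-GFP and 3 in cKO-mNLS against cKO-GFP, and all genes called in the former numbered 176; the calls of Oas2 and Ifi44 kept their side of the threshold. Deviations of libraries with the same number from their group means correlated at -0.15 to 0.06 over all genes tested. This cannot tell whether libraries of the same number shared a collection day or a sort.

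With each library left out in turn, the count of the 9 genes called ranged from 0 to 1, from 0 to 1 and from 1 to 2 in cKO-GFP against NC-GFP, cKO-mNLS against cKO-GFP and cKO-mNLS against NC-GFP. The interferon gamma count ranged from 2 to 30, from 0 to 16 and from 15 to 23, and the count of all genes from 61 to 755, from 1178 to 3629 and from 1217 to 2603. Of the alternatives for single members, 430 kept direction and side of the threshold, 21 moved while uncalled, 6 lost a call and 2 gained one. None turned a called direction. The cause was not tested. Isg15 had the fewest counts of the 9, 8201 over the 10 libraries, and ligand genes at 0 limit only what counting can show.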
